A study of Mus musculus with 6 samples.

Results

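The mouse microRNA miR-335 was followed through its 2 mature arms, mmu-miR-335-5p and mmu-miR-335-3p, in small RNA libraries from pancreatic islets, which hold the insulin and glucagon cells of the gland. The arms were taken by name and are 2 of the 1011 rows of the deposited table. Both passed the filter on low counts, which kept 406 rows. The mice were labelled as HFD-fed (3 libraries) or NCD-fed (3 libraries). Strain, age, sex and time on the diet are not stated in the sources used here. Whether a library holds islets of 1 mouse or of several is not stated either, so p-values measure the spread between these libraries, which may be technical.

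A microRNA is cut from a folded precursor, the hairpin, whose sides give a 5p and a 3p mature strand, and a strand loaded into an Argonaute protein represses mRNAs that pair with its seed, bases 2 to 8. miR-335 lies inside Mest, a gene expressed from the paternal allele and long used as a marker of fat expansion in mice, and the miRNA is made from the Mest primary transcript. Levels of miR-335 have been reported as raised in islets of diabetic Goto-Kakizaki rats and in fat of obese mice. Mest mRNA was not measured in these small RNA libraries.

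The sequences are shown because each arm has its own seed, given in capitals, and because their likeness to other rows bears on how reads were assigned. They were read from the deposited table and were identical to the RefSeq entries for GRCm38.p6.
miR-335-5p: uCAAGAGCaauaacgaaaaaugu
miR-335-3p: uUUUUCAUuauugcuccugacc
The RefSeq hairpin, with both mature arms in capitals, spans 98 bases at chr6:30741299-30741396 (GRCm38.p6, plus strand).
mir-335 hairpin: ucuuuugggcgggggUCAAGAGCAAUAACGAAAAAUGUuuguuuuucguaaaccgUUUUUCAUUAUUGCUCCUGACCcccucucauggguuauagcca

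The 5p arm takes up bases 16 to 38 of the hairpin (chr6:30741314-30741336) and the 3p arm bases 56 to 77 (chr6:30741354-30741375). In the minimum free energy fold, at -44.3 kcal per mol, 18 bases of the 5p arm paired with the 3p arm, and 6 of the 7 seed bases of each arm lay in such pairs. In the GENCODE M21 annotation the hairpin lies within Mest (chr6:30723547-30748465, plus strand) and on its strand. Of 11 annotated Mest transcripts, 7 span the hairpin, in each case within an intron. It is the second intron in 4 of them, the third in 2 and the first in 1. The next gene downstream, Copg2, runs on the minus strand and does not reach the hairpin.

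No other row of the table shares the seed CAAGAGC of the 5p arm or UUUUCAU of the 3p arm, and neither does another RefSeq mouse miRNA. The row nearest to miR-335-5p was miR-148a-3p at 8 edits, and the row nearest to miR-335-3p was miR-450b-5p at 7 edits. The reverse complement of 1 arm differed from the other arm by 7 edits. At these distances the arms have no near-identical row with which to exchange reads.

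Of the arms, 3p was the more abundant. Over the 6 libraries miR-335-3p had 8055 reads and miR-335-5p had 920, so 3p held 89.7% of miR-335 reads. By mean level miR-335-3p ranked 98 and miR-335-5p ranked 204 of the 406 tested miRNAs. Ligation-based libraries favour some miRNA ends over others, so the order of the 2 arms is that of reads. Both arms together took 0.00919% to 0.0185% of a library's reads.

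In counts, miR-335-3p was read 1537, 756 and 1806 times in HFD libraries 1, 2 and 3. The counts were 1051, 1857 and 1048 in NCD libraries 1, 2 and 3. On library totals of 7166712 to 11172255 reads, scaled by the TMM factors, these became CPM values (counts per 1e6 reads) of 171, 95.4 and 164 for the HFD libraries. The NCD libraries stood at 156, 190.3 and 74.5 CPM. The highest and the lowest library both belonged to NCD, and the range of the HFD libraries lay inside that of the NCD libraries. The HFD mean was 144 ± 41.9 CPM and the NCD mean 140.3 ± 59.5 CPM (SD, n = 3 each).

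Reads of miR-335-5p numbered 180, 111 and 183 in HFD libraries 1, 2 and 3, and 108, 214 and 124 in those of NCD. The TMM-scaled HFD levels were 20.05, 14.01 and 16.6 CPM, and the NCD levels were 16.02, 21.9 and 8.82 CPM. As for the 3p arm, NCD 2 was highest, NCD 3 was lowest and the HFD values fell between them. Mean levels were 16.9 ± 3.03 CPM for HFD and 15.6 ± 6.57 CPM for NCD (SD, n = 3 each).

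**Figure D1:**
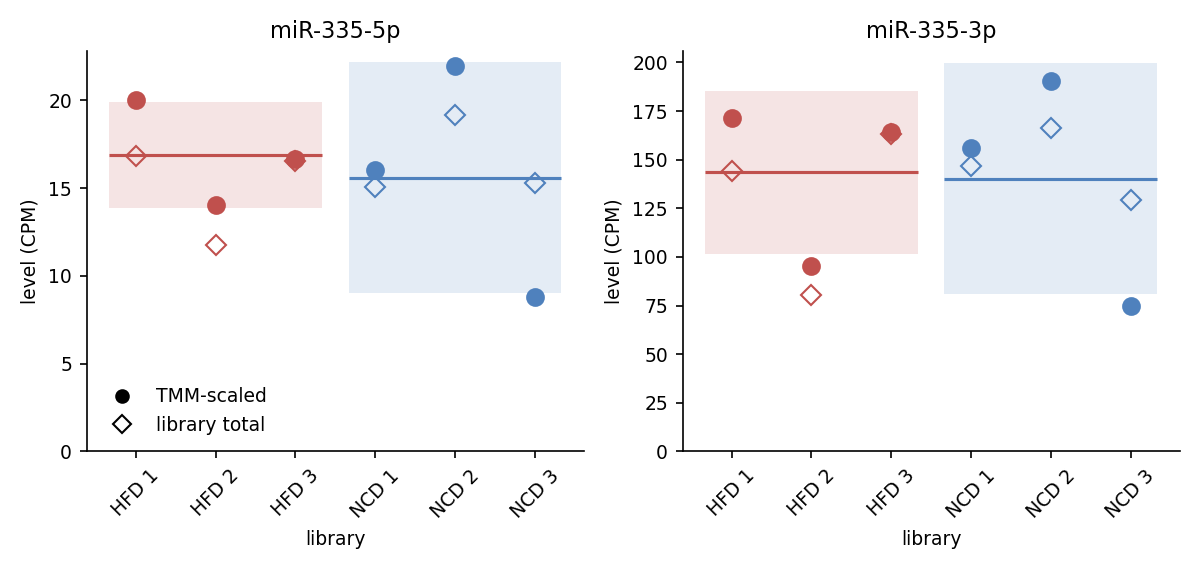
Level of each miR-335 arm (y axis, CPM) in each library (x axis). Filled circles are TMM-scaled CPM, open diamonds CPM on the library total, lines the mean and shaded bands 1 SD of the TMM-scaled values over 3 libraries per diet. The diets overlap for both arms, and NCD 3 has the lowest circle (74.5 CPM for 3p) but not the lowest diamond.

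The comparison of the diets asked whether either arm differs between HFD and NCD islets. Neither passed. The log2 fold change of miR-335-5p, HFD against NCD, was 0.14 with a standard error of 0.42 (edgeR quasi-likelihood test, adjusted p = 0.918). For miR-335-3p it was 0.038 with a standard error of 0.39 (edgeR adjusted p = 0.967). The 95% interval of the log2 fold change ran from -0.76 to 1.04 for 5p and from -0.79 to 0.87 for 3p. On the fold scale that is 0.589 to 2.05 for 5p and 0.577 to 1.83 for 3p. A log2 fold change of 1 thus lies outside the 3p interval and inside the 5p interval in this fit. Both intervals use 13.28 degrees of freedom, as edgeR pools the variance of a miRNA with that of the others. They therefore do not rest on the spread of the arm alone. In RNA of whole islets, a change in the share of cells that make miR-335 and a change per cell cannot be told apart.

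In the same fit 1 of 406 miRNAs passed an adjusted p of 0.05, or 0.246%, and it was miR-146a-5p, which NF-kB induces, with a log2 fold change of 2.40. For 62 of the tested miRNAs (15.3%) every library of one diet lay above every library of the other, and the miR-335 arms were not among them. Of the 406, 387 had a larger log2 fold change than miR-335-3p in size, and 18 a smaller one. Within a diet, log2 CPM of the 3p arm had an SD of 0.60 and that of the 5p arm 0.50, beside a median of 0.52 over all tested miRNAs and 0.42 over the 239 with a mean of at least 10 CPM.

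**Figure D2:**
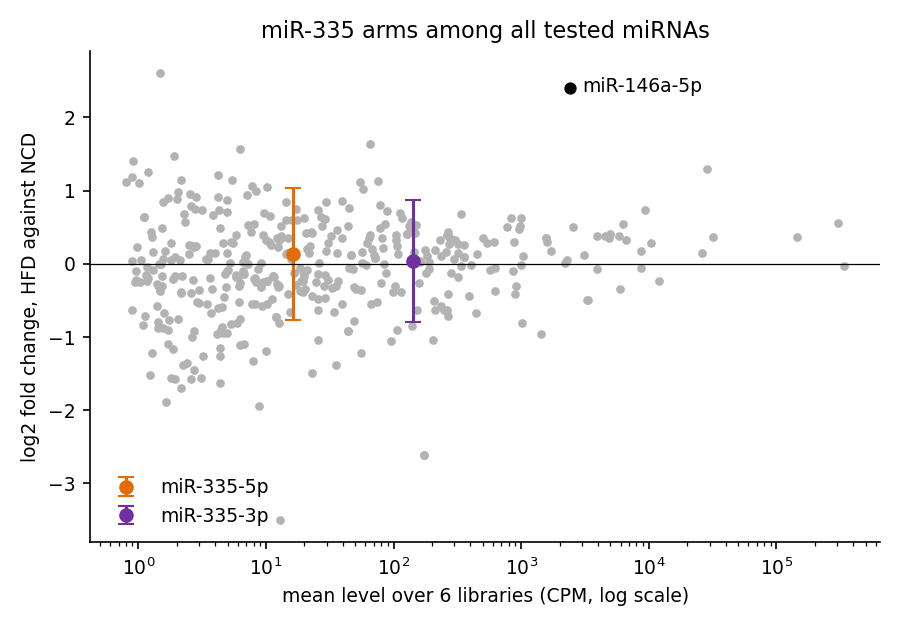
Log2 fold change, HFD against NCD (y axis), by mean level over 6 libraries (x axis, CPM on a log scale) for the 406 tested miRNAs. Coloured points are the miR-335 arms with 95% intervals, and the black point is the 1 miRNA that passed. Both arms lie close to 0, with intervals that reach from about -0.8 to 0.87 for 3p and 1.04 for 5p.

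The direction of the small differences depended on the scaling and on single libraries. NCD 3 had a TMM factor of 1.73, while the others lay between 0.84 and 0.995. On library totals alone the NCD 3 level of miR-335-3p was 129 CPM in place of 74.5, and the lowest library was HFD 2 with 80.2 CPM. On that scale the HFD and NCD means were 129 ± 43.5 and 147 ± 18.6 CPM for 3p, and 15.06 ± 2.85 and 16.5 ± 2.30 CPM for 5p (SD, n = 3 each). The edgeR log2 fold changes were then -0.19 for 3p and -0.14 for 5p (adjusted p = 0.874 and 0.932). The median over all tested miRNAs was also lower with library totals, at -0.37 in place of 0.015, and relative to this median the arms stood at 0.18 and 0.23, against 0.023 and 0.12 with TMM factors. Without NCD 3 the TMM-based values were -0.28 for 3p and -0.18 for 5p, and without NCD 2 they were 0.32 and 0.48. Leaving out HFD 1 turned both to negative values (-0.14 and -0.035), leaving out HFD 2 gave 0.23 and 0.21, and leaving out HFD 3 gave -0.11 for 3p. None of these differences passed the edgeR test. In all 19 alternatives of either arm the adjusted p, from edgeR, DESeq2 or limma, was 0.655 or more.

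**Figure D3:**
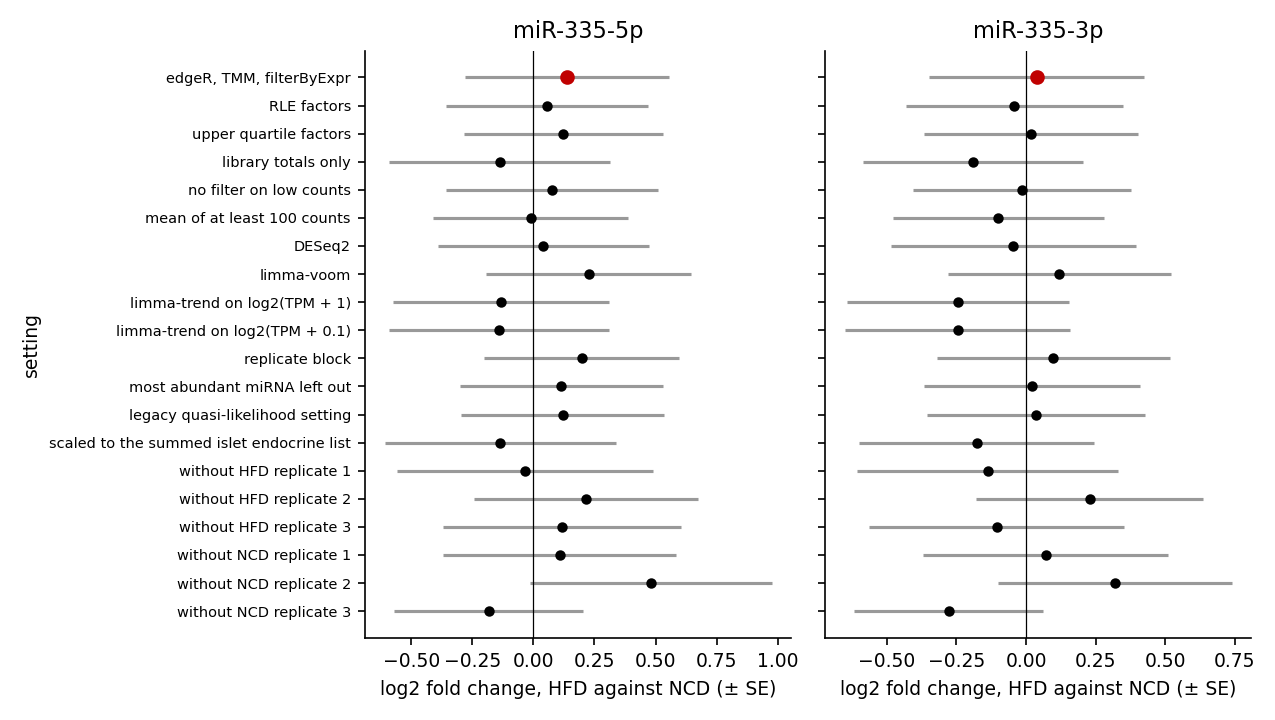
Log2 fold change of each arm, HFD against NCD, with its standard error (x axis) under each setting (y axis), with the reported fit in red at the top. Values fall on both sides of 0 for both arms, from -0.18 to 0.48 for 5p and from -0.28 to 0.32 for 3p.

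The arms moved together from library to library. On the TMM scale the order of the 6 libraries was the same for both arms (Spearman's rho = 1, exact permutation p = 0.00278, the smallest that 6 libraries allow for this rank test). Pearson's r of log2 CPM was 0.94 (exact permutation p = 0.00139, the smallest possible), and 0.83 without NCD 2 and NCD 3, the libraries farthest from the median of the 5p arm. Both arms of a library share 1 scaling factor. Some other miRNAs followed an arm more closely on this scale, such as let-7f-5p with 5p (r = 0.992) and miR-98-5p with 3p (0.977). The joint movement is thus not particular to the 2 arms of this hairpin. On library totals r was 0.93 and rho 0.71 (exact permutation p = 0.0181 and 0.136). There r was 0.52 without HFD 2 and NCD 2, on that scale the libraries farthest from the median of the 5p arm. Leaving out the extremes of an arm narrows its range, so a lower r does not show that the relation rests on them. After Benjamini-Hochberg adjustment over the 4 coefficients the p-values were 0.00556 for each coefficient on the TMM scale and 0.0241 and 0.136 on library totals, from exact permutation tests.

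The next comparison asked whether the balance between the arms differs between diets, a quantity that needs no scaling between libraries. Of miR-335 reads, the 5p arm held 10.5%, 12.8% and 9.20% in HFD libraries 1, 2 and 3. In NCD libraries 1, 2 and 3 it held 9.32%, 10.3% and 10.6%. The 95% Wilson interval was widest for HFD 2, at 10.7% to 15.2%, and that of HFD 3, at 8.01% to 10.6%, lay below it. All other pairs of libraries had overlapping intervals, which cover counting error only and treat each read as a separate molecule. As a log2 ratio of 5p to 3p, the HFD mean was -3.05 ± 0.27 and the NCD mean -3.16 ± 0.11 (SD, n = 3 each). They differed by 0.10, less than the spread of the HFD libraries (two-sided exact permutation p = 0.7, and this design allows no p under 0.1). Without HFD 2, the library with the highest 5p share, the difference was -0.040.

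**Figure D4:**
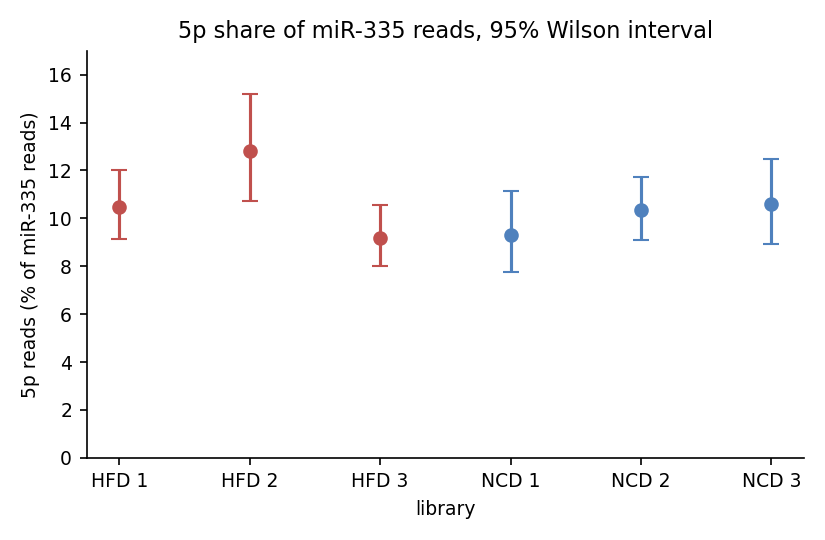
Share of miR-335 reads from the 5p arm (y axis, percent) in each library (x axis), with 95% Wilson intervals as bars. The 6 shares lie between 9.20% and 12.8%, with HFD 2 highest.

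Set beside other hairpins, the arm balance of miR-335 varied little. The table holds both arms of 274 hairpins by name, of which 186 had at least 100 reads in all. In 91 of these the 3p arm had more reads, and the 3p share was above that of miR-335 in 59. In 30 hairpins the rarer arm had at least the 920 reads of miR-335-5p. Across these the log2 ratio of the arms had a median SD of 0.52 over the 6 libraries, and miR-335 had the lowest, 0.19. The next lowest was miR-3071, at 0.22. By the SD within a diet, 1 of the 30 was lower than miR-335 (0.21), namely miR-3071 at 0.18. Of the 84 hairpins whose rarer arm had at least 100 reads, 2 had a lower SD than miR-335. They were miR-486a at 0.064 and miR-540 at 0.15, and these 3 names were chosen after their values were seen. The miR-486a arms are reverse complements over 20 bases and had 639 and 661 reads, so both rows may hold the same reads, whereas the longest such run in miR-335 is 9 bases. The 5p row of miR-3071, with 7444 reads, was close to miR-136-3p, with 7474, in every library. Those rows may also share reads, so the ratio of miR-3071 may not be that of its own arms. The absolute difference between diets was 0.10 for miR-335 and 0.28 in the median of the 30 hairpins, of which 3 had a smaller one. Some of these hairpins share an arm sequence with a paralog or have rows with shared reads, so this order is a description of the table.

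**Figure D5:**
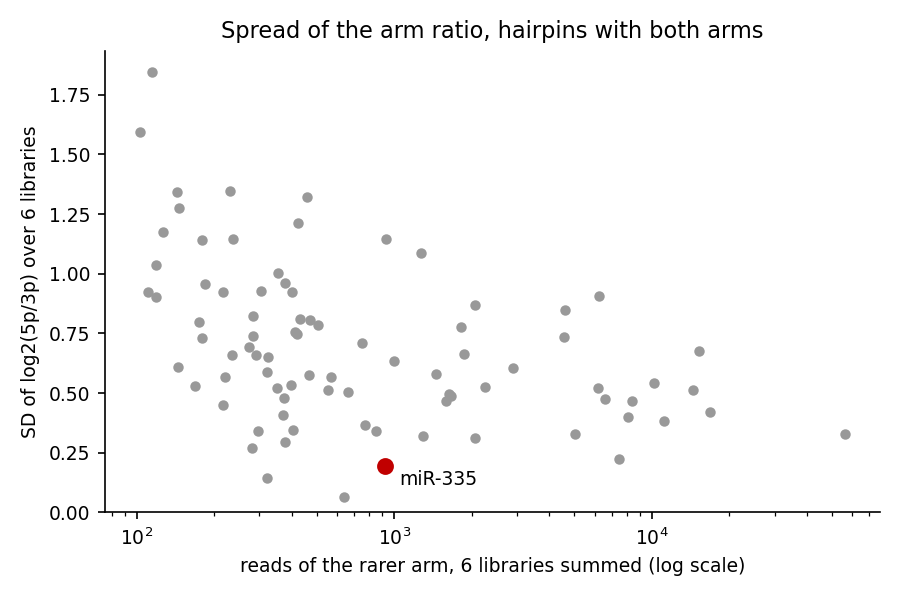
SD over the 6 libraries of the log2 ratio of 5p to 3p reads (y axis) by the summed reads of the rarer arm (x axis, log scale) for 84 hairpins with at least 100 reads of the rarer arm. miR-335, in red, has an SD of 0.19, and 2 hairpins lie below it.

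The miRNAs whose levels followed miR-335 most closely were sought among the other 237 with a mean of at least 10 CPM, by Pearson's r of TMM-scaled log2 CPM over the 6 libraries. For miR-335-5p the 5 highest were let-7f-5p (r = 0.992), miR-340-3p (0.992), miR-582-3p (0.965), miR-30a-3p (0.956) and let-7g-5p (0.955). For miR-335-3p the 3 highest were miR-98-5p, a let-7 family member (r = 0.977), let-7g-5p (0.940) and miR-340-3p (0.930). let-7f-5p, among the most abundant miRNAs of these islets, stood at 34432, 23177 and 25016 CPM in HFD libraries 1, 2 and 3 and at 26034, 35558 and 12855 CPM in those of NCD. It was thus highest in NCD 2 and lowest in NCD 3, as were both miR-335 arms. The 3 lowest correlations with miR-335-5p were those of miR-1224-5p (r = -0.972), miR-139-5p (-0.970) and miR-129-1-3p (-0.958), each highest in NCD 3.

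These values share the scaling factor of each library. Without NCD 3 the 5 positive values with miR-335-5p were 0.824 to 0.973, and on library totals 0.815 to 0.932. The negative ones without NCD 3 were -0.885 for miR-1224-5p, -0.876 for miR-139-5p and -0.826 for miR-129-1-3p. They were weaker on library totals, at -0.334 for miR-1224-5p, -0.246 for miR-139-5p and -0.222 for miR-129-1-3p. All of these miRNAs lie at least 11 edits from the arm they follow, and none passed the edgeR test between diets (adjusted p = 0.580 for miR-129-1-3p, the lowest of them, to 0.944 for miR-30a-3p).

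A list of miRNAs reported as raised with miR-335 in diabetic Goto-Kakizaki rat islets, written from memory of the literature and not checked against it, had 6 tested members beside miR-335. Their log2 fold changes had a median of 0.68, with 4 positive and 2 negative, beside a median of 0.015 over all tested miRNAs. Of these 6, 0 passed the edgeR test, beside 0.246% of all tested miRNAs. The CREB-induced neighbours miR-132 and miR-212 were the 4 with positive values. miR-212-5p was at 56.0, 70.7 and 96.8 CPM in the HFD libraries and at 32.5, 47.5 and 23.6 CPM in the NCD libraries, with no overlap, as for 15.3% of all tested miRNAs. Its log2 fold change was 1.12 ± 0.37 (SE, edgeR adjusted p = 0.363). miR-132-5p had 1.13 ± 0.39, also without overlap (adjusted p = 0.363), miR-212-3p 0.85 ± 0.58 (0.586) and miR-132-3p 0.51 ± 0.52 (0.684). For both 3p arms the diets overlapped. In NCD 3 miR-132-3p was at 216 CPM, above its 90.4 in HFD 1 and 148 in HFD 2. There miR-212-3p was at 20.6 CPM, above its 13.5 in HFD 1 and 13.8 in HFD 2. miR-130a-3p, at -0.17 ± 0.62, and miR-142a-5p, a blood cell miRNA, at -0.82 ± 0.73, had negative values. The arms of miR-335, at 0.14 and 0.038, were near the median of all miRNAs. Whether the fold change of miR-335 differs from those of miR-132 and miR-212 was not tested.

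Other miRNAs of imprinted genes that host a single hairpin or a pair, those of Igf2, H19 and Gnas, were scarce next to miR-335. Of 8 listed, 3 were in the table used here and 2 were tested. The HFD and NCD means were 2.67 ± 1.35 and 1.39 ± 0.41 CPM for miR-296-3p, and 1.22 ± 0.91 and 1.57 ± 1.42 CPM for miR-298-5p (SD, n = 3 each). Neither passed (edgeR adjusted p = 0.582 and 0.794). The 3 in the table, tested or not, summed to at most 6.44 CPM in a library, whereas both miR-335 arms together had 83.3 to 212 CPM.

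Markers of islet endocrine cells and of other cells were read beside miR-335. The 13 listed endocrine-enriched miRNAs, led by miR-375-3p, miR-148a-3p, miR-7a-5p and miR-7b-5p, took 75.1% to 82.8% of the reads of each library. Of these 13, 0 passed the edgeR test, beside 0.246% of all tested miRNAs. For every 1e6 reads of this list there were 177.1, 97.3 and 214 reads of miR-335-3p in HFD libraries 1, 2 and 3, and 177.02, 203 and 172 in those of NCD. HFD 2 was the one low library on this scale, and NCD 3 was near the others.

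miR-335 is also known from mesenchymal cells. The fibroblast and smooth muscle markers, of which 7 of 10 were tested, were led by miR-143-3p, and their summed level was 2824, 5246 and 1455 CPM in HFD libraries 1, 2 and 3, and 2254, 3250 and 1651 CPM in those of NCD. On the TMM scale this sum, mostly miR-143-3p, was highest in HFD 2, where both miR-335 arms were low. The sum was low in NCD 3, where the arms were lowest, but the TMM factor of 1.73 lowers every scaled level of NCD 3. On library totals miR-335-3p was at 129 CPM in NCD 3 and lowest in HFD 2, at 80.2 CPM. The reading of NCD 3 thus depends on the scaling. On the TMM scale not every marker had the order of the sum: miR-10b-5p was highest in NCD 1 (333 CPM) and miR-145a-5p in NCD 3 (15.4 CPM). Between diets miR-143-3p had a log2 fold change of 0.50, and the tested members were 2 positive and 5 negative. The 3 of these markers at 0 in some library were not at 0 in every one. The adipocyte-enriched miRNAs, mostly miR-378a-3p, summed to 140.03 to 185 CPM in the HFD libraries and 164 to 214 CPM in those of NCD, with NCD 3 highest. Of the other lists, the acinar markers ran from 20.2 to 205 CPM in the HFD libraries and from 111 to 418 CPM in those of NCD, highest in NCD 3, the library with the lowest TMM-scaled miR-335. The endothelial markers were at 299.8 to 434 and 346 to 748 CPM, and the leukocyte and erythroid markers at 54.1 to 168 and 52.6 to 173 CPM. The liver and muscle markers were at 48.3 to 130.4 and 127 to 885 CPM, highest in NCD 1. Over all these lists 0 members passed the edgeR test, beside 1 of all 406 tested miRNAs (0.246%). The part of these markers in the levels of miR-335 was not tested.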

How the data were processed

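Small RNA was sequenced from 6 islet libraries, 3 per diet. RNA came from a total RNA column protocol (RNeasy), which can lose short RNA, and libraries from a NEBNext small RNA kit, per the labels' protocols. The sources used here do not name the aligner, counter, build or strand setting. Raw read counts were deposited for each mature miRNA, per the file headers, beside the authors' TPM values, which equalled counts per 1e6 reads of the library total to a relative difference of 4.61e-09.

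Diets were compared with edgeR 4.0.16 in R 4.3.3 (filterByExpr with a minimum count of 10, TMM factors, estimateDisp, glmQLFit with legacy = FALSE, glmQLFTest), with diet as the only term and Benjamini-Hochberg adjustment over 406 miRNAs. Standard errors are the log2 fold change over the root of the F statistic. The arm ratio used a prior count of 0.5 and a two-sided exact permutation test (scipy 1.17.1). Likeness used log2 CPM with a prior count of 2. The hairpin was folded with RNAfold 2.7.2. The steps were tested on simulated data. For edgeR these were counts with the same dispersion for every miRNA and as many rises as falls. They do not test the choice of scaling factors.

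The arms, marker lists and alternatives were chosen with earlier results of these data known. Named miRNAs are both arms, the 5 highest and 3 lowest correlations with miR-335-5p, the 3 highest with miR-335-3p, rows sharing a seed, called miRNAs and up to 4 abundant members of each list. Alternatives were other size factors, other filters, DESeq2 1.42.0, limma 3.58.1 (voom, and trend on log2(TPM + 1) and log2(TPM + 0.1)), the replicate block, the most abundant miRNA left out, other prior counts, an adjusted p of 0.1 and each library left out. The legacy setting and scaling to the summed endocrine list were added after the data were seen.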

Additional observations from a re-analysis of the deposited data

How the results depend on the processing

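No alternative made either arm pass. For miR-335-5p, 12 of 19 alternatives gave a positive and 7 a negative log2 fold change. It was -0.14 with library totals only, -0.012 with a mean of at least 100 counts, -0.13 and -0.14 by limma-trend with a TPM pseudocount of 1 or 0.1, -0.14 when scaled to the endocrine list, and -0.18 to 0.48 when 1 library was left out. For miR-335-3p, 8 were positive and 11 negative: -0.042 with RLE factors, -0.19 with library totals only, -0.046 with DESeq2, -0.013 without a filter, -0.099 when a mean of 100 counts was required, -0.24 and -0.25 with limma-trend at the 2 pseudocounts, -0.18 when scaled to the endocrine list, and -0.28 to 0.32 when 1 library was left out. Relative to the median of all miRNAs under the same alternative, 17 were positive and 2 negative for 5p, and 15 and 4 for 3p. The cause was not tested.

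The count of called miRNAs, 1 at first, was 0 with library totals only, with limma-trend at either pseudocount and when scaled to the endocrine list, 8 without a filter, 3 with DESeq2 and 0 to 4 when 1 library was left out (0 without NCD 1, 4 without NCD 2, 3 without NCD 3). Between diets the arm ratio differed by -0.040 to 0.23 with each library omitted in turn, and the negative value came without HFD 2.

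Libraries with the same replicate number deviated together at r = 0.17, -0.24 and 0.35 across miRNAs for numbers 1, 2 and 3, which does not pair the libraries. With the replicate block the log2 fold changes were 0.20 for 5p and 0.098 for 3p, the count of calls stayed at 1 and the arm ratio difference was 0.10. The 108 to 214 reads of miR-335-5p per library limit the precision of the arm share. The standard error of the log2 fold change was similar for 5p (0.42) and for 3p (0.39), which had 756 to 1857 reads.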
